A study of Rattus norvegicus with 23 samples.

Results

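C1q/TNF-related proteins (CTRPs) are secreted relatives of adiponectin. Their genes are named C1qtnf. The list described here held 7 of them, C1qtnf1, C1qtnf2, C1qtnf3, C1qtnf4, C1qtnf6, C1qtnf7 and C1qtnf9, and its members were taken by gene symbol wherever they stood in the deposited tables. Of the 7 genes, 6 were in the authors' deposited comparison tables of 11283 genes and 5 in the table of values per library with 10723 genes. C1qtnf4 was in none of the tables and C1qtnf3 was not in the table of values per library, so their levels in single libraries were not analysed here. The family was selected on the authors' deposited results, among them the 6-week table in which C1qtnf3 had the smallest p of all genes, and its members then by symbol. The differences between groups are therefore a description of the members and not a test of them.

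The samples were myocardium of Sprague-Dawley rats from which polyadenylated RNA was sequenced. In the MI+TRD groups, the left coronary artery was ligated to cause a myocardial infarction, and a later operation placed a device that the labels call TRD and do not describe. In the MI groups, rats had the infarction alone, and the labels mention no later operation for them, so the device and that operation cannot be told apart. There were 5 MI+TRD and 6 MI libraries at 6 weeks, and 6 MI+TRD and 6 MI libraries at 12 weeks. The labels give no age, sex or animal identifiers, no group without an infarction, and no account of which part of the heart was taken. Values per library covered the 12-week groups, with between 7197118 and 10304156 recovered reads per library, and the 6-week groups entered only through the authors' deposited table.

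A CTRP has a signal peptide, usually a collagen-like stretch, and a globular C1q domain at its end, and these proteins assemble into oligomers and circulate as hormones or act on nearby cells. Adipose tissue, vessel walls and connective tissue cells are known sources. Several CTRPs act through receptors shared with adiponectin and through AMP-activated protein kinase, and CTRP1, CTRP3 and CTRP9 have been studied in mice for effects on the injured heart. RNA levels in whole tissue do not show which cells made a transcript, and fewer cells of a type cannot be told apart from less RNA per cell.

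The promoters of C1qtnf3, C1qtnf6 and C1qtnf9 are shown because the authors' ratios at 6 weeks were highest for the first and second of these members and lowest for the last. Each runs from 250 bases before to 50 bases after the gene's start, 5′ to 3′ on the gene's strand, from RefSeq on build GRCr8, which differs from the rn6 build of the deposited coordinates. They lie at chr2:61644066-61644365 (plus strand), chr7:111964815-111965114 (minus strand) and chr15:39091189-39091488 (plus strand). Capitals mark matches to TATAAA (the TATA box), to CATTCC (the core bound by TEAD factors) or to TGANTCA (the AP-1 core). In all 6 motifs were searched on both strands, these 3 with CAGACA (SMAD), CANNTG (E-box) and ACGTG (HIF), and they were chosen after the promoter sequences had been looked at.
C1qtnf3: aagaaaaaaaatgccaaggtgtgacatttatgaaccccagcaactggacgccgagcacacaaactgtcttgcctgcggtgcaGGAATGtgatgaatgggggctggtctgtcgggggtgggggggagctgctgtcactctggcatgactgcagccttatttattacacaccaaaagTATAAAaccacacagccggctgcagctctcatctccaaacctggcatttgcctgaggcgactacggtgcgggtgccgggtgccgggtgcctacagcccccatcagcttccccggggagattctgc
C1qtnf6: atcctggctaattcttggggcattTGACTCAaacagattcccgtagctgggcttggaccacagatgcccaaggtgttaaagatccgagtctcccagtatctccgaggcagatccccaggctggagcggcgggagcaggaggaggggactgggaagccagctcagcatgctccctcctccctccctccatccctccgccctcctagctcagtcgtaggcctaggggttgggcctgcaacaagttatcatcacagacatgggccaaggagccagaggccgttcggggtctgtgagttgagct
C1qtnf9: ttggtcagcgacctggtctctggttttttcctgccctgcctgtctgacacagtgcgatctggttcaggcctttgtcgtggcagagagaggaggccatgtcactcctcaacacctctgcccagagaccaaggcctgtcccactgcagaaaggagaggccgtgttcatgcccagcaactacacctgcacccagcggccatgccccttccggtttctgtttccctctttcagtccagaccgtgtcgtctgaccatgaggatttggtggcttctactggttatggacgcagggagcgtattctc
The C1qtnf3 window held a match to TATAAA starting 75 bases before the gene's start and a match to CATTCC, on the minus strand, starting 168 bases before it. Whether any match is in use was not tested. The C1qtnf6 window held an AP-1 core starting 226 bases before the start, and the C1qtnf9 window held none of the 3 marked motifs. CAGACA was in the windows of C1qtnf6, C1qtnf7 and C1qtnf9, CANNTG in those of C1qtnf2, C1qtnf3, C1qtnf6 and C1qtnf9, and ACGTG in that of C1qtnf2. Of the ACGTG matches in C1qtnf2, the one on the minus strand starting 197 bases before the gene's start overlaps no E-box, and those starting 69 and 68 bases before it lie in an E-box. Among 33469 RefSeq promoters of the same length, 14.2% held TATAAA, 14.2% CATTCC, 7.33% TGANTCA, 21.1% CAGACA, 72.1% CANNTG and 19.3% ACGTG. Of the 7 members, 5 had a promoter in the table, and the windows of C1qtnf2 and C1qtnf7 held none of the 3 marked motifs.

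At 6 weeks the members' least-squares means in the authors' deposited table differed between groups in both directions. C1qtnf3, C1qtnf6 and C1qtnf1 had ratios of MI+TRD to MI of 11.2, 3.02 and 1.52, C1qtnf7 had 1.17, and C1qtnf2 and C1qtnf9 had 0.862 and 0.691. Among the 6 members 3 had an unadjusted p below 0.05 with a ratio above 1 in the authors' deposited table, and none with a ratio below 1, where 4.42% of all genes were higher and 4.09% lower at that p. None of the 11283 genes, 0% in all, had a false discovery rate below 0.05. The median log2 ratio was 0.42 over the 6 members and -0.04 over all genes.

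C1qtnf3 encodes CTRP3, an adipokine also known as cartonectin that cartilage and fat cells secrete. Its least-squares mean was 1.66 in MI+TRD and 0.148 in MI at 6 weeks, in the authors' deposited table. Of all 11283 genes it had the smallest p there (8.76e-06) and the 18th largest ratio, with a false discovery rate of 0.0989. The MI mean was close to the lower end of the table, at 2.99 times the smallest least-squares mean of that column, while the MI+TRD mean was 39.3 times the smallest of its column. At 12 weeks the authors' deposited table gave 0.114 in MI+TRD and 0.0963 in MI, a ratio of 1.18 (authors' p = 0.961), and both means were within 2.46 times the smallest of their columns.

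C1qtnf6 encodes CTRP6, which in mice inhibits the alternative pathway of complement. The authors' deposited table gave 13.5 in MI+TRD and 4.46 in MI at 6 weeks (authors' p = 0.00253, false discovery rate 0.348). In the 12-week authors' deposited table it had 3.47 in MI+TRD and 2.87 in MI, a ratio of 1.21. C1qtnf1 encodes CTRP1, which is made in vessel walls and adipose tissue. It measured 15.1 in MI+TRD and 9.94 in MI at 6 weeks (authors' p = 0.0162, false discovery rate 0.435) and 5.96 in MI+TRD and 8.28 in MI at 12 weeks, in the authors' deposited tables, so its ratio lay above 1 at 6 weeks and below 1 at 12 weeks. The difference between the ratios at the 2 times was not tested, since single-library values at 6 weeks were not used here.

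**Figure D1:**
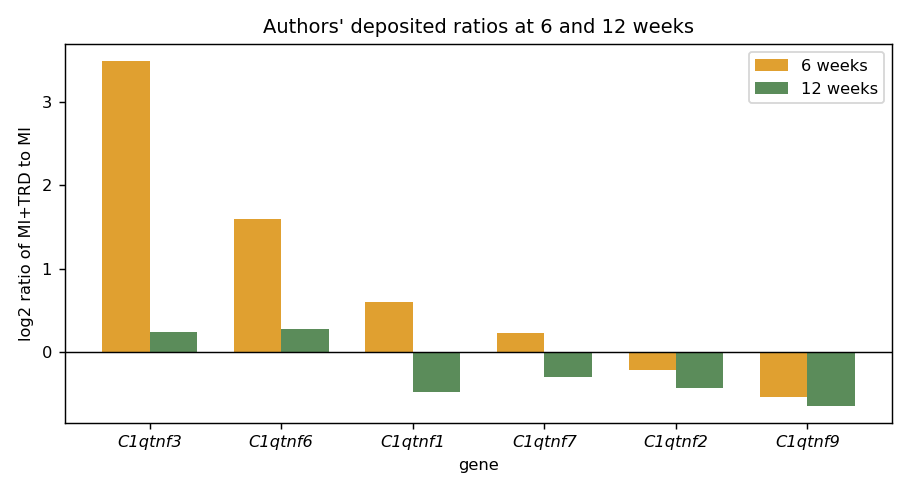
Authors' deposited log2 ratios of MI+TRD to MI (y axis) for the 6 members in the comparison tables (x axis), with 6 weeks in orange and 12 weeks in green. C1qtnf3 stands at 3.49 and C1qtnf6 at 1.59 at 6 weeks, against 0.24 and 0.27 at 12 weeks, while C1qtnf9 is below 0 at both times. Without MI+TRD replicate 6, the 12-week mean count of C1qtnf6 was 2.02 in MI+TRD and 2.75 in MI.

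Values of cell type markers in the same 6-week comparison are given beside those of the members, and none of these markers had a false discovery rate below 0.05. In the authors' deposited table all 12 macrophage markers had a ratio above 1 and 10 of them an unadjusted p below 0.05 (4.42% of all genes were higher at that p), with a median log2 ratio of 1.33. Of 12 markers of activated fibroblasts 11 had a ratio above 1 and 8 an unadjusted p below 0.05, with a median of 1.35. Fibronectin (Fn1), a matrix protein of young scar, had 494 in MI+TRD and 58.2 in MI, and periostin (Postn), a matricellular protein of activated fibroblasts, had 75.1 in MI+TRD and 7.92 in MI. Both genes were named after their values were seen, and log2 ratios in the activated fibroblast list ran from -0.12 to 3.25. At an unadjusted p below 0.05 in the authors' deposited table, 5 of 11 fibroblast identity markers were higher and 0 lower. There 0 of 10 adipocyte markers were higher and 3 lower, though 6 of the 10 had a ratio above 1, with a median log2 ratio of 1.11. Of 5 cartilage and tendon markers 1 was higher and 0 lower at that p, with 2 ratios above 1 and 3 below. All 10 endothelial markers had a ratio below 1, and 4 of them an unadjusted p below 0.05 in the authors' deposited table (4.09% of all genes were lower at that p). Among 9 ventricular myocyte markers 0 had a ratio above 1, and 0 were lower at that p. Of 5 atrial myocyte markers 4 had a ratio above 1, with a median log2 ratio of 1.52, and 0 were higher at that p. Of 7 mesothelial markers 2 had a ratio above 1 and 5 below, and 1 was lower at that p. At 12 weeks both of these lists lay on the other side. Over all 11283 genes, 4851 had a ratio above 1 and 6432 a ratio below 1. The part of these cell types in the ratios of C1qtnf3, C1qtnf6 and C1qtnf1 was not tested.

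C1qtnf9 encodes CTRP9, the closest relative of adiponectin in the family. It lies on chromosome 15 at 41074328 to 41080961 (rn6, plus strand). Its normalized count at 12 weeks had a lowest, median and highest value of 16.1, 24.7 and 34.4 in MI+TRD, and of 28, 36.2 and 48.2 in MI. Of the MI+TRD libraries 5 lay below the lowest MI library and only replicate 6, at 34.4, lay within the MI range. The share of all genes with 4 or 5 MI+TRD libraries below all MI libraries was not counted. Of 10628 genes tested, 7211 had a log2 fold change below 0. The means were 24.7 ± 6.09 in MI+TRD and 37.5 ± 7.82 in MI (SD, n = 6 each), a log2 fold change of -0.61 (SE 0.18), or -0.47 relative to the median of all genes. In the authors' deposited table the 6-week means of C1qtnf9 were 33.7 in MI+TRD and 48.7 in MI. Its authors' p there was 0.0804 and its false discovery rate 0.657.

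C1qtnf1 lies on chromosome 10 at 107455845 to 107476043 (plus strand). Its values at 12 weeks were 4.55 (lowest), 5.49 (median) and 8.83 (highest) in MI+TRD, and 5.83, 7.68 and 10.3 in MI. On the deposited scale 5 MI+TRD libraries again lay below all MI libraries, and replicate 6 held the highest MI+TRD value. On log2 values minus the library median, only MI+TRD replicates 1, 2 and 5 lay below the lowest MI library (-0.721). Replicates 3 and 4 were at -0.664 and -0.658 there, within the MI range. The means were 5.86 ± 1.51 in MI+TRD and 7.92 ± 1.68 in MI (SD, n = 6 each), a log2 fold change of -0.43 (SE 0.18) and of -0.28 relative to all genes. Without MI+TRD replicate 6 the mean was 5.27 ± 0.458 (SD, n = 5) and the log2 fold change -0.55.

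C1qtnf2 encodes CTRP2, which in mice activates AMP-activated protein kinase in muscle cells. It lies on chromosome 10 at 29067102 to 29084036 (plus strand). Its values were 3.02 (lowest), 3.96 (median) and 6.28 (highest) in MI+TRD, and 4.74, 5.51 and 7.37 in MI, and 4 MI+TRD libraries lay below the lowest MI library. The means were 4.34 ± 1.27 in MI+TRD and 5.77 ± 1.05 in MI (SD, n = 6 each), a log2 fold change of -0.42 (SE 0.19).

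C1qtnf7 encodes CTRP7, which in mice affects glucose metabolism. It lies on chromosome 14 at 72011518 to 72025138 (minus strand). Its values were 2.40 (lowest), 3.86 (median) and 5.59 (highest) in MI+TRD, and 3.03, 4.90 and 5.48 in MI, so the groups overlapped over most of their range. The means were 3.84 ± 1.23 in MI+TRD and 4.64 ± 0.885 in MI (SD, n = 6 each), a log2 fold change of -0.29 (SE 0.22).

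C1qtnf6 lies on chromosome 7 at 119746150 to 119752667 (minus strand). Its values were 1.22 (lowest), 2.08 (median) and 10.9 (highest) in MI+TRD, and 1.84, 2.70 and 3.49 in MI. The highest value was MI+TRD replicate 6, with 272 recovered reads, while every other library had between 30 and 84 reads. The mean was 3.49 ± 3.64 in MI+TRD and 2.75 ± 0.629 in MI (SD, n = 6 each), a log2 fold change of -0.03 (SE 0.38). Without replicate 6 the MI+TRD mean was 2.02 ± 0.546 (SD, n = 5) and the log2 fold change -0.42. In replicate 6 the score of the activated fibroblast markers (the mean log2 value of the markers minus the library median) was 1.67, while the remaining MI+TRD libraries ran between -0.79 and 0.60 and the MI libraries between -0.87 and 0.42. The macrophage score was 1.99 in replicate 6, at most 0.34 in the other MI+TRD libraries and at most -0.18 in MI. Replicate 6 also had the highest mesothelial score of the 12 libraries (0.034) and the lowest ventricular myocyte and endothelial scores (7.72 and 2.42). The part of these cells in the level of C1qtnf6 was not tested.

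**Figure D2:**
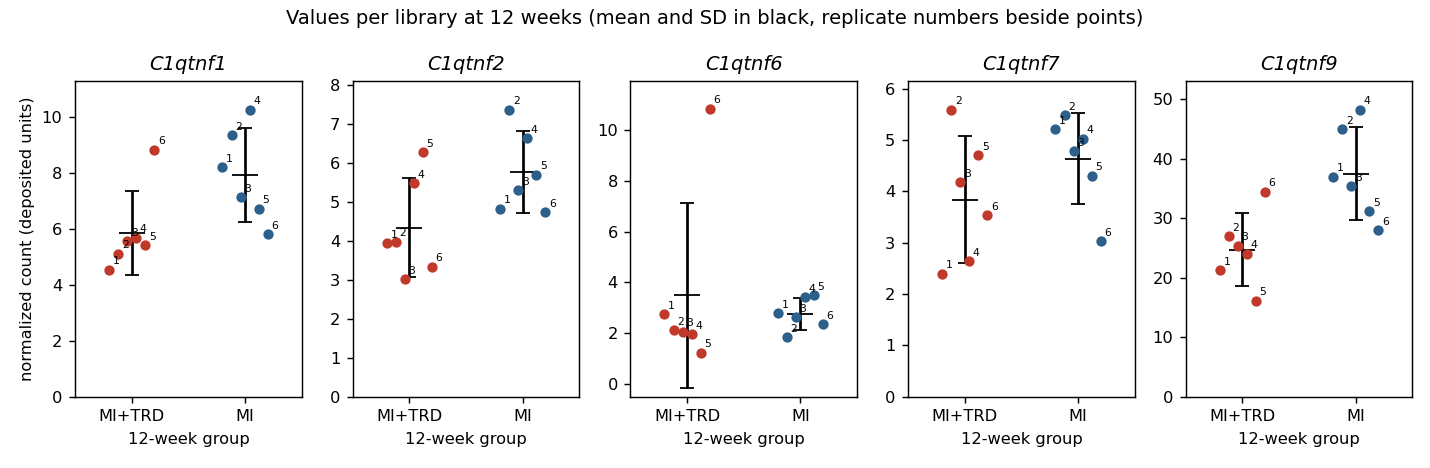
Normalized count (y axis, deposited units) of the 5 members with values per library at 12 weeks, with 6 MI+TRD libraries (red) and 6 MI libraries (blue) in each panel, replicate numbers beside the points, and mean and SD in black. C1qtnf9 and C1qtnf1 each have 5 MI+TRD libraries below all MI libraries in these units, and MI+TRD replicate 6 is the highest point of C1qtnf6 at 10.9. Relative to the library median, MI+TRD replicates 3 and 4 lie within the MI range of C1qtnf1. The lower SD bar of C1qtnf6 in MI+TRD passes below 0.

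With limma over the whole table, 0 of 10628 genes had an adjusted p below 0.05 (0%), and the members' adjusted p lay between 0.132 for C1qtnf9 and 0.979 for C1qtnf6. At an unadjusted p below 0.05, 3 of the 5 members were lower, C1qtnf1, C1qtnf2 and C1qtnf9, and 0 higher, where 19.1% of all genes were lower and 2.79% higher. None of the members was without overlap between the groups, against 1.59% of all genes with every MI+TRD library below every MI library and 0.113% with every one above. The median log2 fold change was -0.42 over the 5 members and -0.14 over all genes. With any 1 library left out, C1qtnf9 stayed at an unadjusted p below 0.05, while C1qtnf1 lost it in 7 and C1qtnf2 in 8 of the 12 fits. Across these 12 fits between 1428 and 2331 of the 10628 genes were lower at that p. With median ratio scaling, equal totals, quantile normalization, edgeR or DESeq2, C1qtnf9 was the one member with an unadjusted p below 0.05. In those runs between 412 and 1042 of the 10628 genes were lower at that p. MI+TRD replicates 1, 4 and 5 had between 114 and 178 genes at 0 reads, while the 3 remaining MI+TRD libraries had between 13 and 46 and the MI libraries between 28 and 75. Without replicates 1, 4 and 5, log2 fold changes were -0.36 for C1qtnf9, -0.29 for C1qtnf1, -0.70 for C1qtnf2, 0.42 for C1qtnf6 and -0.06 for C1qtnf7. C1qtnf2 was then the member at an unadjusted p below 0.05, where 1031 of 10628 genes were lower.

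In the same comparison at 12 weeks no marker of another cell type had a limma adjusted p below 0.05. Of 6 tested mesothelial markers 5 were higher at an unadjusted limma p below 0.05, with a median log2 fold change of 1.53. Of 9 ventricular myocyte markers 4 were lower at that p, with a median of -0.31, where 2.79% of all genes were higher and 19.1% lower. The mesothelial markers Krt8, Krt18 and Upk1b had MI means of 0.352, 0.292 and 0.188, below the minimum mean required for testing. Their MI+TRD means were 2.82, 1.43 and 2.69, so they entered the test through the group in which they were higher. Msln and Gpm6a, also higher at that p, had MI means of 0.593 and 3.82, above that minimum. A log2 fold change below 0 was found for 7211 of all 10628 genes tested, with a median of -0.14 over all genes. All 5 tested atrial myocyte markers were also below 0, with a median of -1.62, and 0 of them had an unadjusted p below 0.05. Single libraries stood far apart in these markers, with the atrial score between -1.66 and 4.47 in MI+TRD and between -0.11 and 6.23 in MI. The atrial myosin light chain gene Myl7 measured 0.0999 (lowest), 2.42 (median) and 614 (highest) in MI+TRD, and 2.32, 54.8 and 3170.0 in MI. C1qtnf7 and the atrial score had rho 0.657 over 12 libraries (permutation adjusted p = 0.357) and r 0.607 (permutation adjusted p = 0.267), with r 0.831 within MI+TRD and 0.267 within MI, and r 0.474 without the 2 libraries farthest from the median score. This was not particular to the atrial score: with the score of 5 Schwann cell markers C1qtnf7 had rho 0.727 (permutation adjusted p = 0.202). Within groups its r with that score was 0.819 in MI+TRD and 0.319 in MI. The part of these cell types in the members' values was not tested.

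**Figure D3:**
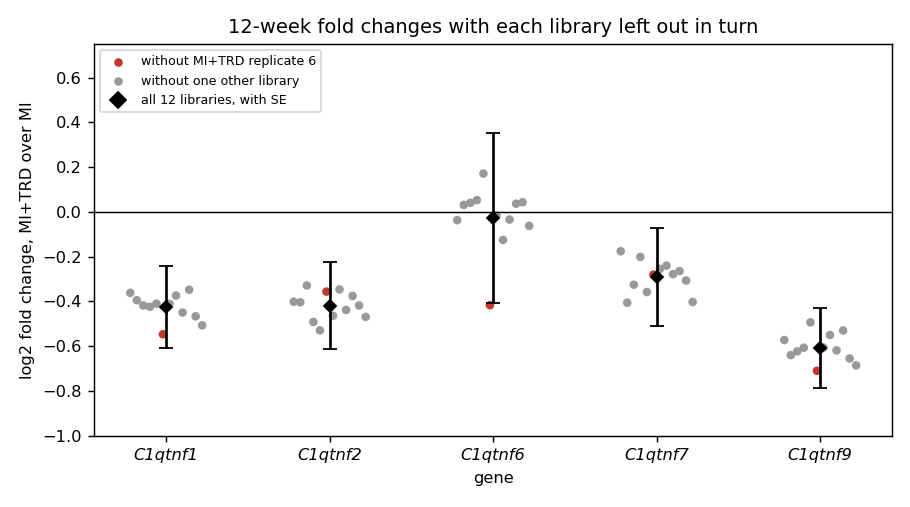
Log2 fold change of MI+TRD over MI at 12 weeks (y axis) for 5 members (x axis), with black diamonds and SE bars for all 12 libraries and dots for fits without 1 library. C1qtnf1, C1qtnf2, C1qtnf7 and C1qtnf9 stay below 0 in each of these fits, and C1qtnf6 runs between -0.42, without MI+TRD replicate 6 (red), and 0.17.

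C1qtnf1 and C1qtnf9 went up and down together across libraries at 12 weeks. On log2 values minus the library median, Pearson's r was 0.805 and Spearman's rho 0.895 over 12 libraries (permutation p = 0.00095 and 0.00029, adjusted p = 0.0095 and 0.0029 over the 10 pairs of members). Without the 2 libraries farthest from the median of C1qtnf1, r was 0.678. Within groups, r was 0.534 over the 6 MI+TRD libraries and 0.976 over the 6 MI libraries. With each group's mean removed, rho was 0.797 (permutation adjusted p = 0.03) and r 0.696 (permutation adjusted p = 0.0567). None of the other 9 pairs had an adjusted p below 0.05, and C1qtnf2 with C1qtnf6 had the next largest r in size, at -0.672 (permutation adjusted p = 0.0586).

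Among the 60 relations between the 5 members and 12 marker lists, 1 had an adjusted p of rho below 0.05, that of C1qtnf2 with mural cells, and 1 an adjusted p of r below 0.05, that of C1qtnf7 with fibroblast identity. C1qtnf2 and the score of 10 mural cell markers, genes of smooth muscle and pericytes, had rho 0.867 (permutation adjusted p = 0.033) and r 0.666 (permutation adjusted p = 0.267). Within groups that r was 0.841 in MI+TRD and 0.642 in MI, and without the 2 libraries farthest from the median score it was 0.748. The permutation adjusted p of rho was between 0.0627 and 0.112 on deposited log2 values, with group means removed and without MI+TRD replicate 6. C1qtnf7 and the score of 11 fibroblast identity markers had r 0.835 (permutation adjusted p = 0.0294) and rho 0.818 (permutation adjusted p = 0.0519). Within groups that r was 0.850 in MI+TRD and 0.774 in MI, and without the 2 farthest libraries it was 0.744. The adipocyte list gave rho between -0.37 and 0.51 with the members and the endothelial list between -0.34 and 0.57, none with an adjusted p below 0.05 (lowest permutation adjusted p 0.511 and 0.498).

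**Figure D4:**
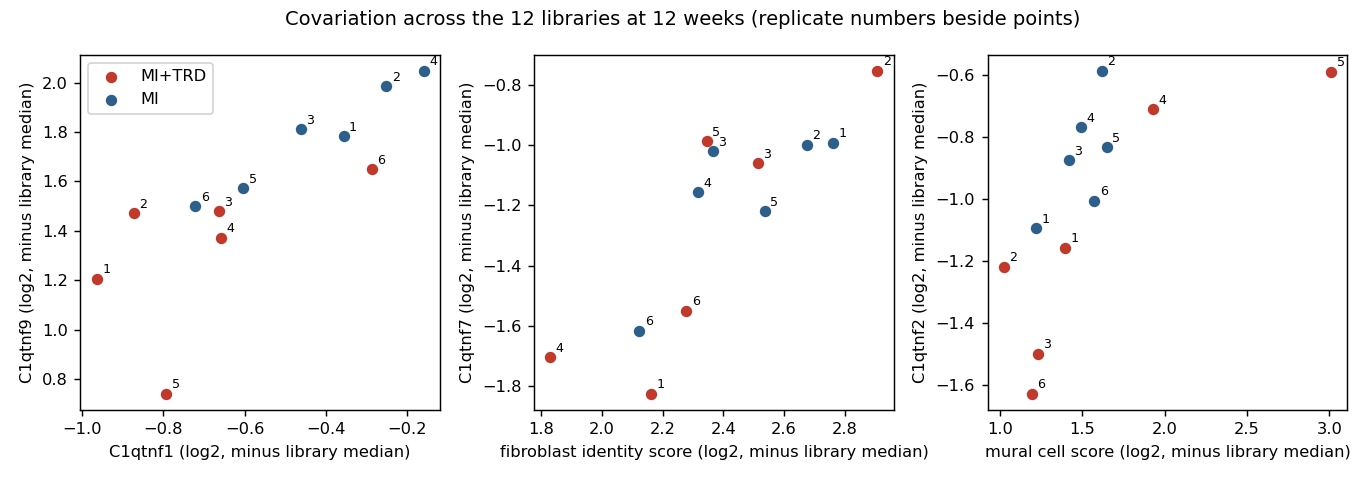
Log2 values minus the library median in 12 libraries at 12 weeks, MI+TRD in red and MI in blue, with replicate numbers. The panels plot C1qtnf9 against C1qtnf1 (r = 0.805), C1qtnf7 against the fibroblast identity score (r = 0.835) and C1qtnf2 against the mural cell score (r = 0.666).

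Over the 10627 other genes tested, the 3 with the highest rho to C1qtnf1 over 12 libraries were Tyk2 (0.958), Ifi35 (0.951) and C1qtnf9 (0.895). Those most like C1qtnf9 were Pex5 (0.965), Bst2 (0.958) and Mum1 (0.951), and C1qtnf1 ranked 27th for it. For C1qtnf2 they were Arc (0.930), Bex3 (0.916) and Fam110b (0.909). For C1qtnf6 they were Ass1 (0.916), Pik3cd (0.867) and Clcn2 (0.846), and for C1qtnf7 Gsta1 (0.958), Btg2 (0.937) and Rps4x (0.930). Within groups, Pearson's r of these pairs lay between 0.534 for C1qtnf1 with C1qtnf9 and 0.995 for C1qtnf2 with Arc. These genes were picked as the highest of many, and the values are given as a description.

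Of 28 listed symbols of other genes whose products carry a C1q domain, 7 were in the tables. C1qtnf5, a close relative that is not among the 7 members, had 13.7 in MI+TRD and 7.32 in MI at 6 weeks in the authors' deposited table. At 12 weeks its normalized count was 3.51 ± 1.63 in MI+TRD and 5.98 ± 1.93 in MI (SD, n = 6 each), a log2 fold change of -0.78 (SE 0.30; limma adjusted p = 0.156), with all 6 MI+TRD libraries below the MI mean. At 6 weeks all 7 of these genes had a ratio above 1, and 6 an unadjusted p below 0.05 in the authors' deposited table, where 4.42% of all genes were higher at that p. Of these 6 genes 3, C1qa, C1qb and C1qc, are complement chains that macrophages make and are also in the macrophage list. At 12 weeks 1 of the 7, C1qtnf5, was lower at an unadjusted p below 0.05 with limma and 0 were higher, where 19.1% of all genes were lower and 2.79% higher. Adiponectin (Adipoq) ranged at 12 weeks from 0.05 to 7.61 in MI+TRD and from 0.0540 to 18.2 in MI.

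Of 6 listed receptor genes for adiponectin or CTRPs, 4 were measured, with log2 fold changes between -0.45 for Rxfp1 and 0.06 for Adipor2. At 12 weeks 0 of 4 measured receptors had an unadjusted p below 0.05 with limma, and 0 of 4 had one in the authors' deposited table at 6 weeks. The adiponectin receptor Adipor1 measured 84.2 ± 11.8 in MI+TRD and 85.7 ± 10.4 in MI, and T-cadherin (Cdh13), which binds adiponectin on endothelium, measured 42.9 ± 10.8 in MI+TRD and 48.5 ± 12.7 in MI (SD, n = 6 each). Of 15 measured genes of AMP-activated protein kinase signalling, 1 was higher and 3 lower at an unadjusted limma p below 0.05 at 12 weeks, and the share lower was close to the 19.1% of all genes (2.79% were higher). The catalytic subunit gene Prkaa1 had a log2 fold change of 0.56 (SE 0.18), the regulatory subunit gene Prkag1 had -0.51 (SE 0.17) and Nos3, the endothelial nitric oxide synthase gene, had -0.35 (SE 0.16), and these 3 had limma adjusted p between 0.133 and 0.212. In the authors' deposited 12-week table, where 2.94% of genes had a false discovery rate below 0.05, Prkag1 was the one gene of this list that did (0.0482), and none of the 6 members did. At an unadjusted p below 0.05 that authors' deposited table had 2 members lower, C1qtnf1 and C1qtnf9, and 0 higher, where 22% of all genes were lower and 2.12% higher.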

How the data were processed

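Libraries of polyadenylated RNA were made from rat myocardium and read on Illumina instruments, per the labels' protocols. Partek and build rn6 are named in the submitters' processing notes. The sources used here do not give the aligner, counting tool, annotation, use of strand, scaling or test. The values per library are a signal, the normalized count per gene, per the file headers. In each library the low values were whole multiples of its smallest value (97.2% to 98.6% of values up to 20 steps lay within 0.1 of a whole number), so reads were taken as the value over that step, minus 1. The table held no column without a sample. The authors deposited comparison tables with p-values, false discovery rates, a linear ratio of MI+TRD to MI, a signed fold change (used as a score and not reported) and least-squares means as a signal.

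At 12 weeks limma 3.58.1 (trended prior, two-sided, Benjamini-Hochberg) was run on log2(value + 0.231) without covariates, for 10628 genes with a mean of at least 0.461. This pseudocount is 5 times and this minimum 10 times the mean smallest value, and it understates fold changes of low genes. edgeR 4.0.16 and DESeq2 1.42.0 were run on recovered reads. Every gene in the table had at least 31 reads in at least 1 library. Correlations used 100000 permutations. Named genes were the members, up to 3 genes per related list by smallest limma p and, for each member, the 3 genes with the highest rho. Adipoq, Adipor1, C1qa, C1qb, C1qc, Fn1, Myl7 and Postn were named after their values were seen. The members and lists were chosen with earlier results of these data known. The tests were tested on simulated data. In each pair of libraries of a group the reads differed by more than sampling noise (chi-square over its degrees of freedom at least 14.7). No label names an animal, so a p-value measures only the spread among the samples, which may be technical.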

Additional observations from a re-analysis of the deposited data

Results flagged for a closer look

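At 12 weeks, MI+TRD replicate 6 stood apart from the other 5 MI+TRD libraries in 2 of the 10 combinations of a member and a group that were examined. Its C1qtnf1 value was 8.83, with the remaining MI+TRD libraries between 4.55 and 5.70, and its C1qtnf6 value was 10.9, with the remaining ones between 1.22 and 2.75. In both cases the gap to the nearest library, as a share of the whole range of the group, was over the 95% critical value of Dixon's test, which chance passes in about 1 in 20 groups. Of the 12 libraries it also had the highest mesothelial, macrophage and activated fibroblast scores, 3.16, 2.78 and 2.04 above the MI means, and the lowest ventricular myocyte and endothelial scores, 7.72 and 2.42. The part of these cell types in its values was not tested.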

How the results depend on the processing

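The count of genes called at 12 weeks was 0 with limma in every alternative run and with edgeR, and 21 with DESeq2, none of them a member. The numbers of higher against lower genes at an unadjusted p below 0.05 were 297 against 2034 as deposited, 796 against 877 with median ratio scaling, 703 against 1042 with quantile normalization, 1206 against 412 with equal totals and 847 against 743 with edgeR. C1qtnf1, C1qtnf2 and C1qtnf9 kept their direction in all 26 alternatives, from -0.55 to -0.20, -0.70 to -0.19 and -0.71 to -0.36. C1qtnf7 reversed in 1, to 0.081 without MI+TRD libraries 1, 4, 5 and 6, a choice made after seeing the data. C1qtnf6 reversed in 14: it was 0.013 with the larger pseudocount, 0.12 with median ratio scaling, 0.19 with equal totals, 0.12 with quantile normalization, 0.42 without MI+TRD libraries 1, 4 and 5, 0.48 with edgeR, 0.49 with DESeq2 and 0.12 relative to all genes (an added alternative). With single libraries left out it ran from -0.42 to 0.17; the cause was not tested. Of the 70 correlations, 2 had an adjusted p of rho below 0.05, C1qtnf1 with C1qtnf9 and C1qtnf2 with the mural score. On log2 values as deposited 2 had one, C1qtnf1 with C1qtnf9 and C1qtnf7 with the fibroblast identity score. With group means removed 1 did and without MI+TRD replicate 6 again 1, each time C1qtnf1 with C1qtnf9. Correlations covered 10 pairs of members and not the 21 planned, since 5 members had values per library. With the replicate number as a block 0 genes were called. Same-numbered libraries correlated between -0.334 and 0.327 in their deviations, so the numbers were not treated as pairs. Of the members, C1qtnf2 and C1qtnf9 had an unadjusted p below 0.05 under the block, where 1833 of 10628 genes were lower at that p. The SE of C1qtnf6 was 0.38, and 0.23 without MI+TRD replicate 6. C1qtnf3 could not be examined by library.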
